A study of Mus musculus with 21 samples.

Results

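The 6419c5 line labelled EPHA2-KO KOB was compared with its parental line in pancreatic tumour cells sorted from mouse tumours. The 6 libraries described here, 3 of KOB and 3 of the EPHA2 wild-type parental line (WT), were chosen by their column names in the deposited table, which holds 21 libraries in all. 6419c5 is a clone of a mouse pancreatic ductal tumour. Cells of every line were implanted under the skin of C57BL/6 mice, received no treatment and were sorted from the tumours 3 weeks later. The other 15 libraries are 3 of a further 6419c5 line labelled EPHA2-KO (KOA) and 12 of the clone 6694c2. They entered the test of KOB against WT only to set the spread between libraries, and the KOA libraries were also compared directly with KOB. No label used here says how EPHA2 was edited, whether KOB is 1 clone, or whether each library came from a separate animal, so p-values measure only the spread between these libraries, which may be technical.

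Of 13312 genes whose level reached 1 TPM (transcripts per 1000000, a length-scaled share of all transcripts of a library) in at least 3 of the 6 libraries, 4007 rose in KOB (30.1% of the genes tested) and 2044 fell (15.4%). Changes of at least 2-fold were called for 867 genes that rose (6.51%) and 559 that fell (4.2%). Genes induced by interferon, genes of MHC class I antigen presentation and keratins were among those with the largest rise. Among those that fell furthest were a neuronal pentraxin, a gastric trefoil peptide, netrin-1 and a matrix metalloproteinase. Each difference below is that of mean log2(TPM + 1), KOB less WT, with the standard error (SE) and the adjusted p of the limma test, and TPM values follow the order of table columns 1, 2 and 3. For the 15 genes named in each direction by size of change, no overlap between groups was a condition of naming and is no added support. The median difference over all tested genes was 0.11, and list medians are to be read against it. List counts are likewise to be read against the 30.1% of tested genes that rose and the 15.4% that fell. The shares that rose in the MHC class II, prostaglandin, EGF receptor, ductal and gastric, and fibroblast lists, among others, were near 30.1%. The median of the MHC class II list was 1.51, however. After rescaling by median of ratios the median fell to 0.0032, with 3301 genes higher and 3140 lower (51.2% of the calls higher, against 66.2% before), and quantile normalization gave 3340 higher and 3449 lower (49.2%).

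**Figure D1:**
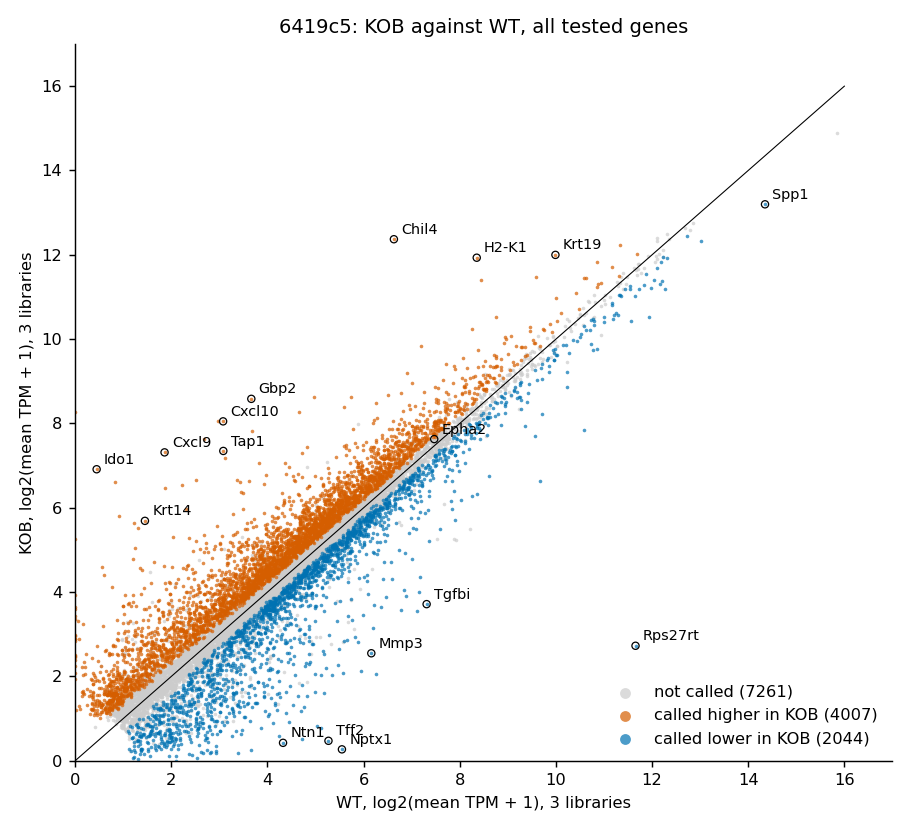
Mean TPM of each tested gene in 3 WT libraries (x) and 3 KOB libraries (y), both as log2(mean TPM + 1), coloured by the limma call, with the line of equal levels. Ido1, Chil4, Cxcl9, Cxcl10, Gbp2 and H2-K1 sit far above the line, Rps27rt, Nptx1, Tff2 and Ntn1 far below it, and Epha2 close to it.

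As background, interferons act through receptors that activate JAK kinases and STAT transcription factors. STAT dimers bind GAS elements and complexes of STAT proteins with an IRF protein bind ISRE elements in promoters, among them those of guanylate-binding proteins, antigen-presentation genes and the chemokines that draw activated T cells. EPHA2 is a receptor tyrosine kinase for ephrin-A ligands, studied in pancreatic tumours for its link to T cell entry.

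The 6 libraries held 12734 to 13316 genes at 1 TPM or more, and the correlation between libraries of 1 line was 0.972 to 0.979 in WT and 0.981 to 0.984 in KOB. Mir6236, the most abundant entry, took 3.98% to 9.11% of all TPM in WT and 2.79% to 3.21% in KOB. Markers of the labelled cell type were abundant as a sum: the summed TPM of 10 tumour epithelium genes was 6931, 7842 and 5851 in WT and 14810.2, 12566 and 16534 in KOB. Krt8, Krt18 and Krt19 made up most of each sum. Of the 10 genes, 5 rose, 2 fell and 3 were not called. Sequencing depth is not kept by TPM and is unknown here, so no counting interval is given.

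The promoter bases of 4 genes among the 15 with the largest rise are shown because they belong to interferon-induced families and were picked for holding an ISRE core. Of those 15 genes 9 had a promoter entry and 4 of the 9 held the core, while Tap1, also interferon-induced, held neither the core nor the GAS motif. They are the 250 bases before the RefSeq start site (GRCm38.p6), written 5′ to 3′ on the gene's strand, with capitals marking matches to the ISRE core GAAANNGAA or the GAS motif TTCNNNGAA on either strand.
Cxcl9, chr5:92328080-92328329, minus strand: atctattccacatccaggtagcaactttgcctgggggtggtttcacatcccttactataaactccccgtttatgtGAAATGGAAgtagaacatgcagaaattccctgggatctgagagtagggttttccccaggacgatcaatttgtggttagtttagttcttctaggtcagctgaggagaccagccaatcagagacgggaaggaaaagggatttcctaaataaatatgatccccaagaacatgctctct
Cxcl10, chr5:92348890-92349139, minus strand: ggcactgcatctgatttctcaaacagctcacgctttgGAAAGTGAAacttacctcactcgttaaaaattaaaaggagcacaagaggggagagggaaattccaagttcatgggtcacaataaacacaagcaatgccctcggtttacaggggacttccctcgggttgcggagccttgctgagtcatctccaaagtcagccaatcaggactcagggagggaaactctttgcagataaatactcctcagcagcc
Gbp2, chr3:142620413-142620662, plus strand: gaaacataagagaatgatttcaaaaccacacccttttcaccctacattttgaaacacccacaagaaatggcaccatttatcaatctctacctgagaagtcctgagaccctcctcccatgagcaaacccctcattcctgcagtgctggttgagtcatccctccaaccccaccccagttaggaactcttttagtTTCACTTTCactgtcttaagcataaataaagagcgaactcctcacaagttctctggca
Tgtp2, chr11:49064213-49064462, minus strand: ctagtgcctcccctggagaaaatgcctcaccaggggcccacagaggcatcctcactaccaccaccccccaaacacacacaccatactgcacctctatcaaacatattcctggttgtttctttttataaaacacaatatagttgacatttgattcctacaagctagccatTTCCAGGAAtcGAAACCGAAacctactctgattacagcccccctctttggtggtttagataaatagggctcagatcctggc
Counted from the base just before the start site, the core begins at -175 in Cxcl9, -213 in Cxcl10, -58 in Gbp2 and -70 in Tgtp2, and Tgtp2 also holds the GAS motif at -81. The ISRE core occurred in 7.13% of 32851 promoter windows of this length and the GAS motif in 7.02%. Among guanylate-binding proteins and immunity-related GTPases with a promoter entry, 10 of 11 held the ISRE core and 6 of 11 the GAS motif. The ISRE core was held by 12 of 29 type I interferon effectors, 3 of 9 T cell chemokines, 3 of 16 interferon signalling genes, 4 of 22 MHC class I genes and 1 of 9 MHC class II genes. Among the 15 named genes that fell, 2 of 12 with an entry held it. The AP-1 motif TGANTCA was found in 2 of 9 promoters of the named genes that rose (Cxcl10 and Gbp2, not capitalized above), in 2 of 12 of those that fell (Mmp3 and Sprr2k) and in 6.75% of all windows. Such matches describe the letters only.

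Epha2 RNA was not lower in the line labelled KOB. Epha2 (chr4:141301221-141329384, GRCm38.p6) stood at 164, 175 and 190.4 TPM in WT and 169.7, 201 and 221 TPM in KOB (difference 0.16 ± 0.12, adjusted p = 0.31, with an exact two-sided permutation p of 0.3 where 3 against 3 libraries cannot go below 0.1). KOB and WT values overlapped, with the lowest KOB library below the middle WT library, and KOA stood at 144, 152 and 156 TPM. Epha2 RNA therefore does not check the label, and each direction given for KOB rests on the label alone. TPM per gene also does not show whether a transcript carries a lesion.

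Most other measured Eph receptors fell. Of the 14 listed members 8 were tested, 0 rose and 5 fell, with a median of -0.77, and 3 fell when KOB column 3 was left out. Epha4, a receptor that binds ephrins of both classes, was at 8.65, 9.39 and 8.57 TPM in WT and 2.72, 1.75 and 1.47 TPM in KOB (-1.75 ± 0.26, adjusted p = 2.9e-05), with every KOB library below every WT library. Epha7 fell by less, from 4.04, 4.33 and 4.85 TPM in WT to 2.67, 2.02 and 1.94 TPM in KOB (-0.76 ± 0.12, adjusted p = 6.2e-05). Ephb4, the other abundant receptor, did not pass (69.6, 67.0 and 69 TPM in WT and 83.2, 73.4 and 67.2 TPM in KOB, 0.12 ± 0.12, adjusted p = 0.46). Among ephrin ligands, 7 of 8 listed members were tested, 2 rose and 1 fell. The ligand that fell was Efna5, at 22, 25.0 and 36.7 TPM in WT and 11.6, 13.7 and 9.64 TPM in KOB (-1.17 ± 0.15, adjusted p = 8.1e-06), while Efna1, the usual EPHA2 ligand, did not pass (49.3, 52.1 and 34.4 TPM in WT and 36.3, 36.4 and 45.6 TPM in KOB, -0.18 ± 0.25, adjusted p = 0.58). The 2 that rose were Efnb2 (0.26) and Efnb3 (0.47). Both calls were lost without KOB column 2, in a fit of the 6 libraries alone and in a fit with a block for column number. That of Efnb2 was also lost without WT column 1, in a fit of the 9 libraries of 6419c5 and under each rescaling.

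Interferon receptors and signalling genes were mostly higher in KOB. Of the 19 listed members 19 were tested, 16 rose and 2 fell, with a median of 0.65 against 0.11 over all genes. Socs1, a feedback inhibitor of JAK kinases, was at 13.2, 10.8 and 9.79 TPM in WT and 41.1, 164 and 88.2 TPM in KOB (2.81 ± 0.30, adjusted p = 7.8e-07). Each KOB library stood above each WT library, and KOB column 2 was far above the other KOB columns. Irf1, an interferon-induced transcription factor, went from 54.1, 48.3 and 51.0 TPM to 98.2, 252 and 141 TPM (1.55 ± 0.22, adjusted p = 1.9e-05). The interferon gamma receptor chains rose by less: Ifngr2 was at 73.5, 112 and 81.4 TPM in WT and 175, 160.2 and 163 TPM in KOB (0.92 ± 0.11, adjusted p = 2.6e-06) and Ifngr1 at 109.5, 128 and 79.5 TPM in WT and 161, 149 and 145 TPM in KOB (0.54 ± 0.12, adjusted p = 0.0012). The 2 members that fell were Irf8 and Ptpn2, named after their values were seen. Irf8, a transcription factor of myeloid cells, was at 3.18, 7.05 and 9.46 TPM in WT and 1.18, 2.55 and 1.48 TPM in KOB (-1.40 ± 0.56, adjusted p = 0.049), and Ptpn2, a phosphatase acting on JAK and STAT proteins, at 38.2, 43.8 and 38.4 TPM in WT and 30.7, 32.5 and 34.6 TPM in KOB (-0.29 ± 0.094, adjusted p = 0.017). The number that fell was 0 or 1 without WT column 2, WT column 3, KOB column 1 or KOB column 3.

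Guanylate-binding proteins and immunity-related GTPases, enzymes of defence inside the cell, rose as a group. Of the 18 listed members 17 were tested, 17 rose and 0 fell, with a median of 3.35, and the counts were the same without any 1 library. Gbp2 was at 7.18, 12.2 and 15.7 TPM in WT and 133, 773 and 243 TPM in KOB (4.59 ± 0.42, adjusted p = 1.5e-07). Gbp3 was at 2.13, 4.80 and 4.08 TPM in WT and 32.8, 187 and 57.7 TPM in KOB (3.99 ± 0.40, adjusted p = 3.9e-07). Gbp4, the member with the lowest WT level of these, went from 0.394, 1.15 and 1.14 TPM to 16.7, 119.5 and 30.0 TPM (4.44 ± 0.44, adjusted p = 3.4e-07). All 3 were lowest in KOB column 1 and highest in KOB column 2, with no overlap with WT. Iigp1, a GTPase acting on the vacuoles of parasites, was at 2.26, 5.42 and 8.46 TPM in WT and 56.5, 411 and 123 TPM in KOB (4.62 ± 0.51, adjusted p = 1.2e-06). Tgtp2 was at 2.03, 2.22 and 3.66 TPM in WT and 35.4, 172 and 56.6 TPM in KOB (4.32 ± 0.38, adjusted p = 1.1e-07), but Tgtp1 is a near-identical copy and the split of reads between them is uncertain. Their summed TPM was 5.71, 7.31 and 9.03 in WT and 72.9, 371 and 121 in KOB. Ubd, a ubiquitin-like modifier induced by interferon gamma, was at 0.443, 1.86 and 0 TPM in WT and 29.5, 199 and 61.1 TPM in KOB (5.50 ± 0.51, adjusted p = 1.8e-07).

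Type I interferon effectors rose by smaller steps. Of the 40 listed members 40 were tested, 33 rose and 2 fell, with a median of 1.27. Bst2, tetherin, was at 137, 119 and 100.4 TPM in WT and 365, 836 and 556 TPM in KOB (2.23 ± 0.22, adjusted p = 3.1e-07). Oasl1, a member of the oligoadenylate synthetase family, was at 10.7, 18.7 and 13.0 TPM in WT and 48.9, 58.7 and 66.0 TPM in KOB (1.98 ± 0.21, adjusted p = 5.6e-07), the highest KOB library here being column 3. Ifi35 was at 18.9, 20.4 and 16.7 TPM in WT and 44.0, 72.1 and 56.6 TPM in KOB (1.55 ± 0.13, adjusted p = 4.1e-08). Groups did not overlap for any of these. Ifitm3, a membrane protein that restricts virus entry, went the other way, from 719.8, 557 and 572 TPM to 302, 499 and 323 TPM (-0.74 ± 0.21, adjusted p = 0.0082). The other member that fell was Ifi27l2a (17.8, 93.8 and 37.1 TPM in WT and 3.10, 12.0 and 3.72 TPM in KOB, -2.69 ± 0.95, adjusted p = 0.028), named after its values were seen, and 1 of these 2 calls was lost without WT column 2, KOB column 1 or KOB column 3. Ifitm2 did not pass (944, 884 and 668 TPM in WT and 727, 700.4 and 681 TPM in KOB, -0.23 ± 0.14, adjusted p = 0.19).

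The machinery of MHC class I presentation rose from peptide cutting to surface molecule. Of the 28 listed members 25 were tested, 20 rose and 1 fell, with a median of 1.81. Among peptide suppliers, the immunoproteasome subunit Psmb8 was at 14.9, 28.6 and 29.5 TPM in WT and 117, 521 and 288 TPM in KOB (3.42 ± 0.40, adjusted p = 2.2e-06). Tap1, which with Tap2 pumps peptides into the endoplasmic reticulum, was at 4.23, 8.58 and 9.60 TPM in WT and 65.2, 272 and 148 TPM in KOB (4.10 ± 0.37, adjusted p = 1.3e-07). Tapbp, tapasin, which loads peptides, was at 118, 128 and 137 TPM in WT and 371, 675 and 450.1 TPM in KOB (1.92 ± 0.15, adjusted p = 3.7e-08). In each of the 3 genes the lowest KOB library lay well above the highest WT library. H2-K1, a classical heavy chain (chr17:33996012-34000619), was at 266, 342 and 370.4 TPM in WT and 1970.5, 5632 and 4110.2 TPM in KOB (3.46 ± 0.27, adjusted p = 2.4e-08). H2-D1 was at 266, 398 and 372 TPM in WT and 1533, 3669 and 2907 TPM in KOB (2.90 ± 0.23, adjusted p = 3.7e-08). Their common light chain B2m was at 664, 829.7 and 795 TPM in WT and 1656, 4094 and 2805 TPM in KOB (1.81 ± 0.22, adjusted p = 3.7e-06). In TPM, a scale per transcript length, H2-K1 was lower than B2m in each WT library and higher than B2m in each KOB library. H2-Q4, a nonclassical chain, was at 25.4, 28.0 and 38.1 TPM in WT and 184, 625 and 373 TPM in KOB (3.50 ± 0.28, adjusted p = 4.1e-08). H2-Q8 was listed at 0 in all 3 WT libraries and at 6.17, 69 and 35.9 TPM in KOB, but it shares much sequence with H2-Q6, H2-Q7 and H2-Q9 and its own level is uncertain. The sum over these 4 genes was 1.64, 3.30 and 6.36 TPM in WT and 9.50, 83.3 and 49.1 TPM in KOB. The member that fell was the chaperone Pdia3 (448, 449.7 and 409 TPM in WT and 355, 362 and 351 TPM in KOB, -0.29 ± 0.085, adjusted p = 0.010), named after its values were seen.

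MHC class II genes varied widely between KOB libraries. Of the 12 listed members 9 were tested, 3 rose and 1 fell, with a median of 1.51, and without KOB column 1 the number that rose was 7. Ciita, the class II transactivator, was at 0.743, 1.25 and 1.42 TPM in WT and 3.38, 25.4 and 7.64 TPM in KOB (2.24 ± 0.42, adjusted p = 2.8e-04). Cd74, the invariant chain, was at 79.6, 162 and 197 TPM in WT and 206, 1843 and 709 TPM in KOB (2.23 ± 0.58, adjusted p = 0.0044). H2-DMb1, a peptide exchange chain, was at 5.97, 12.4 and 12.2 TPM in WT and 18.1, 159 and 65.9 TPM in KOB (2.46 ± 0.51, adjusted p = 7.3e-04). H2-Ab1, a surface chain, did not pass (32.4, 62.5 and 80.2 TPM in WT and 43.2, 539.6 and 180.0 TPM in KOB, 1.55 ± 0.65, adjusted p = 0.059), with KOB column 1 inside the WT range and KOB column 2 the highest of the 6 libraries. Ctss, the protease cathepsin S that trims the invariant chain, fell, from 82.9, 217 and 191 TPM to 23.8, 51.4 and 33.6 TPM (-2.10 ± 0.84, adjusted p = 0.049), a call lost without WT column 2 or 3 or any single KOB column (adjusted p 0.0068 to 0.14 over all alternatives).

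Chemokines that bind CXCR3 on activated T cells rose from low levels. Of the 12 listed members 9 were tested, 4 rose and 0 fell. Cxcl9 was at 0.627, 1.78 and 5.48 TPM in WT and 50.2, 339 and 85.2 TPM in KOB (5.21 ± 0.51, adjusted p = 3.2e-07). Cxcl10 was at 5.53, 10.4 and 6.36 TPM in WT and 88.7, 516 and 187 TPM in KOB (4.65 ± 0.41, adjusted p = 1.0e-07). Cxcl11 was at 0.457, 1.01 and 0.664 TPM in WT and 6.86, 31.3 and 11.1 TPM in KOB (3.10 ± 0.35, adjusted p = 1.5e-06). All 3 were lowest in KOB column 1 and highest in column 2, and the lowest KOB library exceeded the highest WT library. Cx3cl1, a membrane-bound chemokine, was at 30.2, 38.4 and 30.4 TPM in WT and 63.0, 105 and 67.3 TPM in KOB (1.20 ± 0.18, adjusted p = 2.9e-05), while Cxcl16 did not pass (87.6, 103 and 87.7 TPM in WT and 112, 141 and 95.8 TPM in KOB, 0.31 ± 0.15, adjusted p = 0.10). Of the myeloid chemokines, growth factors and cytokines, 22 were tested, 4 rose and 1 fell, with 3 falling without WT column 1. Csf1, the macrophage growth factor, was the member that fell (38.2, 41.5 and 72.3 TPM in WT and 24.1, 26.3 and 14.3 TPM in KOB, -1.18 ± 0.37, adjusted p = 0.014), a call lost without WT column 3 or KOB column 3. Csf2 did not pass (22, 10.6 and 21.1 TPM in WT and 3.69, 7.41 and 8.98 TPM in KOB, -1.30 ± 0.59, adjusted p = 0.079), nor did Cxcl1, a neutrophil chemokine (51.7, 88.0 and 79.2 TPM in WT and 28.7, 56.3 and 52.1 TPM in KOB, -0.69 ± 0.65, adjusted p = 0.41). Csf3 was below the filter, at 0.883, 0.302 and 0.317 TPM in WT and 1.30, 1.31 and 0.953 TPM in KOB.

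Among ligands and enzymes that restrain T cells, 16 of 18 listed members were tested, 8 rose and 4 fell. Ido1 (chr8:24584133-24596952), which breaks down tryptophan, had the largest rise after Hist1h2ap, whose own level is uncertain, and was at 0.232, 0.535 and 0.325 TPM in WT and 42.2, 207 and 109.8 TPM in KOB (6.20 ± 0.45, adjusted p = 1.5e-08). Cd274, which encodes PD-L1, was at 3.18, 5.35 and 3.81 TPM in WT and 5.1, 17.8 and 8.66 TPM in KOB (1.04 ± 0.32, adjusted p = 0.014). The lowest KOB library lay below the highest WT library, and the call was lost without WT column 1 or KOB column 2, with a difference of 0.61 without the latter, and in fits of the 6 KOB and WT libraries or the 9 libraries of 6419c5. Tnfrsf14, the receptor HVEM, was at 4.03, 7.42 and 8.18 TPM in WT and 25.7, 41.4 and 31.7 TPM in KOB (2.19 ± 0.23, adjusted p = 8.2e-07). In the other direction, Siglec15, a lectin that inhibits T cells, was at 32.5, 22.4 and 37.6 TPM in WT and 3.02, 3.51 and 3.07 TPM in KOB (-2.89 ± 0.28, adjusted p = 2.5e-07), and Lgals1, galectin-1, at 3696, 3058 and 3351 TPM in WT and 2535, 2192 and 2294 TPM in KOB (-0.52 ± 0.11, adjusted p = 9.2e-04). Neither pair of groups overlapped.

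**Figure D2:**
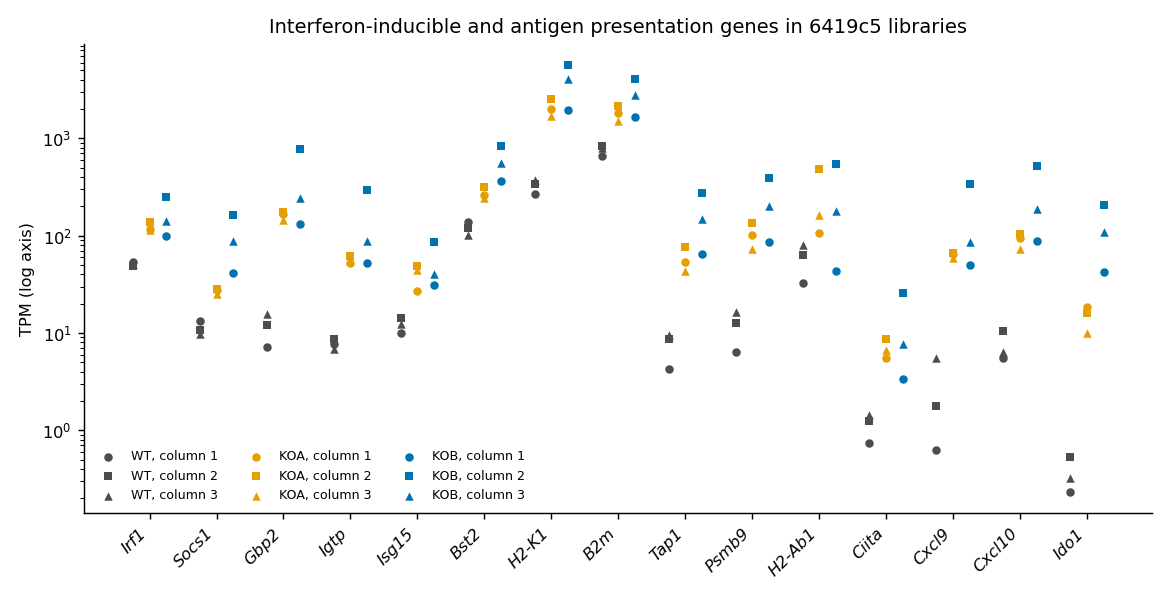
TPM (log axis) of 15 genes of interferon response, antigen presentation and T cell recruitment in each 6419c5 library, by line (colour) and table column (shape). KOB column 2 is the highest of the 9 libraries for each gene, and all KOB points lie above the WT points except for H2-Ab1. Igtp, Isg15 and Psmb9 were chosen after their values were seen.

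Macrophage and pan-leukocyte markers mostly moved the other way from the interferon-induced genes. Of the 18 listed members 17 were tested, 2 rose and 10 fell, with a median of -2.45. The number that fell was 3 to 5 when WT column 2, WT column 3, KOB column 1 or KOB column 3 was left out, and the spread of KOA column 2 enters the same fit. It was 3 in a fit of the 9 libraries of 6419c5 and 15 in a fit of the 6 libraries alone. Median-of-ratios rescaling gave 14 and quantile normalization 15. The summed TPM of the list was 3030.4, 6391 and 4886 in WT and 2623, 3093 and 2637 in KOB, and 3011, 11233 and 2882 in KOA. Plac8, a member that rose, made up most of each KOB sum. Tyrobp, a signalling adaptor of myeloid cells, was at 72.8, 141 and 126 TPM in WT and 14.5, 16.7 and 15.8 TPM in KOB (-2.73 ± 0.76, adjusted p = 0.0072). Ms4a7, a macrophage membrane protein, was at 6.58, 22 and 23.4 TPM in WT and 1.05, 1.38 and 1.53 TPM in KOB (-2.81 ± 0.78, adjusted p = 0.0066). Every KOB library lay below every WT library for both. The members that rose, Cd14 (96.1, 142 and 94.1 TPM in WT and 227, 251 and 214 TPM in KOB, 1.08 ± 0.17, adjusted p = 7.1e-05) and Plac8 (1124, 1311 and 628 TPM in WT and 1938, 2157 and 1952 TPM in KOB, 1.05 ± 0.20, adjusted p = 4.2e-04), are also expressed by epithelial cells. Which cells their RNA came from was not tested. Of the pan-leukocyte list, 6 of 6 members were tested, 5 fell and none rose (2 fell without WT column 2, WT column 3, KOB column 1 or KOB column 3, and 1 in a fit of the 9 libraries of 6419c5), with summed TPM of 95.9, 214 and 230.5 in WT and 39.0, 52.7 and 44.4 in KOB. Ptprc, which encodes CD45, was at 2.67, 7.76 and 8.79 TPM in WT and 1.07, 1.59 and 1.37 TPM in KOB (-1.54 ± 0.52, adjusted p = 0.023), a call lost without WT column 2, WT column 3, KOB column 1 or KOB column 3 (adjusted p 0.0062 to 0.091 over all alternatives). Granulocyte and dendritic cell markers moved both ways. Among granulocyte markers, 6 of 9 listed members were tested, 2 rose and 1 fell, with Retnlg higher (0.217, 0.977 and 1.02 TPM in WT and 2.52, 6.33 and 8.35 TPM in KOB, 1.88 ± 0.41, adjusted p = 0.0011) and Ly6g lower (1.59, 1.52 and 1.19 TPM in WT and 0.564, 0.127 and 0.494 TPM in KOB, -0.81 ± 0.22, adjusted p = 0.0060), and 2 fell without WT column 3 or KOB column 2. Among dendritic cell markers, 4 of 9 listed members were tested, 2 rose and 1 fell. Batf3, a transcription factor of cross-presenting dendritic cells, rose (1.83, 1.68 and 1.37 TPM in WT and 4.90, 7.87 and 5.61 TPM in KOB, 1.42 ± 0.31, adjusted p = 0.0010), and Itgax, which encodes CD11c, fell (3.55, 5.47 and 7.99 TPM in WT and 1.15, 1.85 and 0.719 TPM in KOB, -1.55 ± 0.40, adjusted p = 0.0038). In sorted bulk samples, fewer cells of a type and less RNA per cell cannot be told apart.

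T and NK cell markers were near 0 in both groups. The 14 genes in the table summed to 5.48, 4.98 and 4.30 TPM in WT and 3.71, 9.87 and 7.65 TPM in KOB, and only Cd3d passed the filter (3.11, 2.49 and 2.53 TPM in WT and 2.06, 3.59 and 3.09 TPM in KOB, 0.059 ± 0.21, adjusted p = 0.84). Cd3e, a chain of the T cell receptor complex, was listed at 0 in each WT library and at 0.128, 0.578 and 0.112 TPM in KOB. Ifng, the gene of interferon gamma, was listed at 0 in each WT library and at 0.0793, 0.267 and 0 TPM in KOB. Cd8a was at 0.263, 0.175 and 0.429 TPM in WT and 0.537, 0.786 and 0.782 TPM in KOB. KOB column 2 had the highest and KOB column 1 the lowest summed T and NK marker level of the KOB libraries, the same order as for Socs1, Gbp2 and Cxcl9. The KOA libraries also shared 1 order, with T and NK sums of 5.52, 10.2 and 5.01 TPM and guanylate-binding protein list sums of 725, 802 and 717 TPM. In WT the T and NK sum was highest in column 1, where Socs1 was highest and Gbp2 and Cxcl9 were lowest. Across lines, KOA column 2 and KOB column 2 had T and NK sums of 10.2 and 9.87 TPM. Their guanylate-binding protein list sums were 802 and 2931 TPM. KOB column 1 had a lower T and NK sum than each WT library, and higher Gbp2 and Cxcl9. The part of such cells in the interferon-induced genes was not tested. No B or plasma cell gene of 7 passed the filter, with sums of 0.476, 0.710 and 1.66 TPM in WT and 0.523, 1.02 and 2.21 TPM in KOB.

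**Figure D3:**
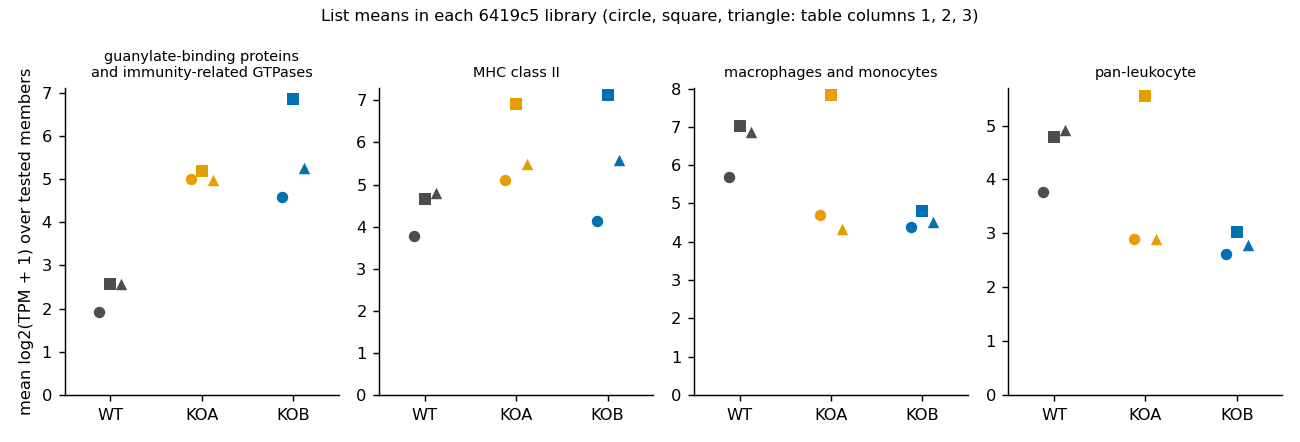
Mean log2(TPM + 1) over the tested members of 4 lists in each 6419c5 library, by line. For guanylate-binding proteins and immunity-related GTPases all KOB points lie above WT, for MHC class II KOB column 1 lies within the WT range, and for macrophage and pan-leukocyte markers all KOB points lie below WT while KOA column 2 lies above it.

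Genes of NF-kappaB, a transcription factor family of inflammation, rose moderately. Of the 21 listed members 20 were tested, 13 rose and 0 fell, with a median of 0.61. Nfkb2, a subunit, was at 59.8, 53.1 and 65.4 TPM in WT and 121, 127 and 125 TPM in KOB (1.06 ± 0.14, adjusted p = 1.0e-05), with KOB values close to each other. Bcl3, a nuclear partner of NF-kappaB, was at 79.0, 64.2 and 56.2 TPM in WT and 113, 169 and 151 TPM in KOB (1.10 ± 0.14, adjusted p = 6.4e-06). Vcam1, an adhesion molecule for leukocytes, was at 103, 134 and 93.8 TPM in WT and 229, 239 and 175 TPM in KOB (0.95 ± 0.13, adjusted p = 1.3e-05). Among genes of interferon-inducible cell death, 20 of 21 listed members were tested, 8 rose and 6 fell. Those that rose included the pore-forming Gsdmd (85.9, 89.2 and 73.7 TPM in WT and 129, 167 and 138 TPM in KOB, 0.79 ± 0.10, adjusted p = 4.5e-06) and Bak1, which permeabilizes mitochondria (61.6, 51.0 and 73.5 TPM in WT and 97.3, 114 and 107 TPM in KOB, 0.78 ± 0.10, adjusted p = 5.2e-06). Bcl2l11, the death-promoting BIM, fell (10.2, 10.6 and 10.1 TPM in WT and 5.64, 6.10 and 4.15 TPM in KOB, -0.85 ± 0.13, adjusted p = 2.8e-05).

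Simple epithelial keratins and 2 basal keratins were higher in KOB. Of the 27 listed members 18 were tested, 11 rose and 2 fell, with a median of 0.66, and 7 rose without WT column 3. Krt19, a ductal keratin, was at 982, 1295 and 771 TPM in WT and 4268, 3308 and 4694 TPM in KOB (2.02 ± 0.18, adjusted p = 1.5e-07). Krt8 was at 2608, 2775 and 2333 TPM in WT and 4771, 3993 and 5672 TPM in KOB (0.89 ± 0.13, adjusted p = 2.9e-05), and its partner Krt18 at 2446, 2468 and 2007 TPM in WT and 3190.3, 3057 and 3752 TPM in KOB (0.53 ± 0.11, adjusted p = 7.0e-04). Krt14, a keratin of basal cells, was at 1.66, 1.74 and 1.81 TPM in WT and 55, 31.0 and 65.9 TPM in KOB (4.17 ± 0.24, adjusted p = 9.2e-10). Krt15 went from 0.769, 0.455 and 0.179 TPM to 17.6, 20.03 and 32.2 TPM (4.02 ± 0.20, adjusted p = 1.7e-10). Krt79 was at 5.33, 10.03 and 5.03 TPM in WT and 272, 147 and 377 TPM in KOB (5.05 ± 0.31, adjusted p = 1.7e-09). None of these keratins overlapped between groups, and Krt14, Krt79 and Krt19 were lowest of the KOB libraries in column 2, the column with the highest interferon-induced genes. Cdh1, E-cadherin, was at 265, 356 and 226 TPM in WT and 635, 627 and 635 TPM in KOB (1.19 ± 0.16, adjusted p = 9.0e-06). The members that fell were tight junction genes, Cldn7 (5.24, 8.11 and 3.79 TPM in WT and 1.30, 0.838 and 1.86 TPM in KOB, -1.50 ± 0.26, adjusted p = 1.6e-04) and Cldn4, the latter named after its values were seen (12.5, 12.4 and 6.97 TPM in WT and 1.81, 3.96 and 3.82 TPM in KOB, -1.47 ± 0.37, adjusted p = 0.0033). Epcam did not pass (44.1, 61.2 and 29.1 TPM in WT and 31.1, 34.1 and 22.8 TPM in KOB, -0.55 ± 0.80, adjusted p = 0.60).

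Ductal and gastric genes moved in both directions. Of the 33 listed members 27 were tested, 9 rose and 11 fell. Tff2, a trefoil peptide of gastric mucus, was at 40.5, 27.7 and 44.5 TPM in WT and 1.17, 0 and 0 TPM in KOB (-4.87 ± 0.39, adjusted p = 3.3e-08), listed at 0 in 2 of 3 KOB libraries. Gkn1, a gastrokine of the stomach lining, also fell, from 4.92, 8.26 and 4.01 TPM to 0.157, 0.176 and 0.273 TPM (-2.44 ± 0.52, adjusted p = 0.0010), named after its values were seen. Spp1, osteopontin, the most abundant of the list, was at 20679, 21587 and 20349.9 TPM in WT and 10813, 9834 and 7533 TPM in KOB (-1.17 ± 0.14, adjusted p = 3.2e-06), a call lost under quantile normalization. Gata6, a transcription factor of the pancreatic and gut epithelium, rose, from 20.3, 25.3 and 20.4 TPM to 62.2, 79.4 and 68.9 TPM (1.63 ± 0.12, adjusted p = 1.5e-08), with no overlap. Muc13, a membrane mucin, was at 1.10, 2.66 and 1.06 TPM in WT and 6.71, 5.21 and 8.35 TPM in KOB (1.61 ± 0.19, adjusted p = 3.4e-06).

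Regulators of epithelial-mesenchymal transition and mesenchymal genes mostly fell. Of the 22 listed members 21 were tested, 4 rose and 11 fell, with a median of -0.67. Wnt5a, a secreted Wnt ligand, was at 31.0, 35.9 and 64.1 TPM in WT and 5.50, 6.41 and 3.80 TPM in KOB (-2.79 ± 0.26, adjusted p = 1.6e-07). Vim, vimentin, did not pass (3117, 3359 and 4017 TPM in WT and 2827, 2906 and 3308 TPM in KOB, -0.21 ± 0.085, adjusted p = 0.0503). Against the direction of the list, Lox, which crosslinks collagen, was at 4.48, 6.60 and 4.83 TPM in WT and 27.8, 19.2 and 28.0 TPM in KOB (2.04 ± 0.33, adjusted p = 7.0e-05), and Itgb3 at 11.1, 13.6 and 18.8 TPM in WT and 47.8, 39.4 and 53.6 TPM in KOB (1.65 ± 0.23, adjusted p = 1.9e-05). Fibroblast markers moved both ways: 14 of 14 listed members were tested, 4 rose and 4 fell (2 rose without WT column 3 or KOB column 1). Over all tested genes 30.1% rose and 15.4% fell, so the share that rose was near that of all genes. The summed TPM of the fibroblast list was 1376, 1722 and 2482 in WT and 2793, 1894 and 2033 in KOB. Dcn, decorin, was at 54.9, 123 and 237 TPM in WT and 13.7, 8.47 and 9.99 TPM in KOB (-3.36 ± 0.48, adjusted p = 2.0e-05), and Pdpn, podoplanin, at 18.3, 29.4 and 53.0 TPM in WT and 3.46, 3.30 and 2.46 TPM in KOB (-2.97 ± 0.38, adjusted p = 6.3e-06). Col1a2, a chain of type I collagen, went the other way, at 227, 251 and 120.2 TPM in WT and 668, 444 and 463 TPM in KOB (1.44 ± 0.40, adjusted p = 0.0067), as did Col1a1 (431, 515 and 669 TPM in WT and 1317, 924 and 966 TPM in KOB, 0.99 ± 0.36, adjusted p = 0.032), a call lost in 4 of the alternatives that leave out 1 library (WT column 1 or 2, KOB column 1 or 3). The part of such cells in the mesenchymal genes was not tested.

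In the TGF-beta pathway, 24 of 25 listed members were tested, 5 rose and 9 fell, and 3 rose without WT column 1 or KOB column 3. The ligand Tgfb1 did not pass (92.2, 100.1 and 127 TPM in WT and 122, 128 and 120.4 TPM in KOB, 0.22 ± 0.15, adjusted p = 0.25). Tgfbr3, betaglycan, a coreceptor, was at 5.40, 6.81 and 15.3 TPM in WT and 0.681, 0.606 and 0.646 TPM in KOB (-2.51 ± 0.28, adjusted p = 1.2e-06). Ltbp1, which stores latent TGF-beta in the matrix, was at 122, 116 and 178 TPM in WT and 56.6, 50.9 and 51.4 TPM in KOB (-1.35 ± 0.13, adjusted p = 2.6e-07), while its relative Ltbp3 rose (217, 209 and 205 TPM in WT and 349, 406 and 321 TPM in KOB, 0.76 ± 0.12, adjusted p = 4.1e-05). Of the secreted targets, Tgfbi was at 98.5, 132 and 243 TPM in WT and 11.5, 14.6 and 10.3 TPM in KOB (-3.51 ± 0.58, adjusted p = 9.1e-05) and Thbs1, thrombospondin-1, at 196, 215 and 278 TPM in WT and 56.6, 81.6 and 47.3 TPM in KOB (-1.90 ± 0.30, adjusted p = 5.1e-05). Ctgf, another secreted target, went the other way and was called higher in all 17 alternatives, with differences of 0.64 to 0.86. In the BMP pathway, 14 of 21 listed members were tested, 4 rose and 7 fell, and the number that fell was 3 without WT column 3 and 4 without KOB column 3. The antagonist Grem1 fell, with the highest WT value in column 3 (92.0, 179.7 and 448 TPM in WT and 38.4, 54.7 and 61.9 TPM in KOB, -1.92 ± 0.41, adjusted p = 8.9e-04), and the ligand Bmp4 rose (20.3, 23.2 and 14.7 TPM in WT and 54.8, 56.6 and 53.7 TPM in KOB, 1.48 ± 0.17, adjusted p = 1.6e-06).

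Stromelysins were lower in KOB. Of the 23 listed members 22 were tested, 5 rose and 6 fell, and 3 rose without WT column 1 or after each rescaling. Mmp3, stromelysin-1, was at 56.0, 73.0 and 82.6 TPM in WT and 4.63, 6.52 and 3.42 TPM in KOB (-3.63 ± 0.42, adjusted p = 2.2e-06), and Mmp10, stromelysin-2, at 8.02, 7.67 and 10.6 TPM in WT and 1.08, 2.45 and 0.313 TPM in KOB (-2.20 ± 0.47, adjusted p = 8.9e-04). Mmp15, a membrane-bound enzyme, rose (7.25, 12.3 and 8.50 TPM in WT and 38.1, 36.1 and 52.1 TPM in KOB, 2.07 ± 0.43, adjusted p = 8.1e-04). In the prostaglandin pathway, 14 of 15 listed members were tested, 4 rose and 5 fell. The number that rose was 2 without WT column 1 or KOB column 1, and the number that fell was 3 without KOB column 3. Ptgs2, the inducible cyclooxygenase, did not pass (76.3, 86.0 and 147 TPM in WT and 56.9, 88.9 and 81.0 TPM in KOB, -0.41 ± 0.29, adjusted p = 0.26, exact two-sided permutation p of 0.5), with the groups overlapping. Ptgs1, the constitutive enzyme, fell (29.5, 47.9 and 72.9 TPM in WT and 9.58, 10.8 and 8.99 TPM in KOB, -2.15 ± 0.32, adjusted p = 2.9e-05), as did Pla2g4a, which releases arachidonic acid (25.7, 28.8 and 28.0 TPM in WT and 17.1, 17.9 and 15.4 TPM in KOB, -0.68 ± 0.093, adjusted p = 1.3e-05). The prostaglandin E2 receptor gene Ptger1 rose (21.5, 26.3 and 28.3 TPM in WT and 47.4, 47.3 and 39.1 TPM in KOB, 0.79 ± 0.11, adjusted p = 1.8e-05).

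**Figure D4:**
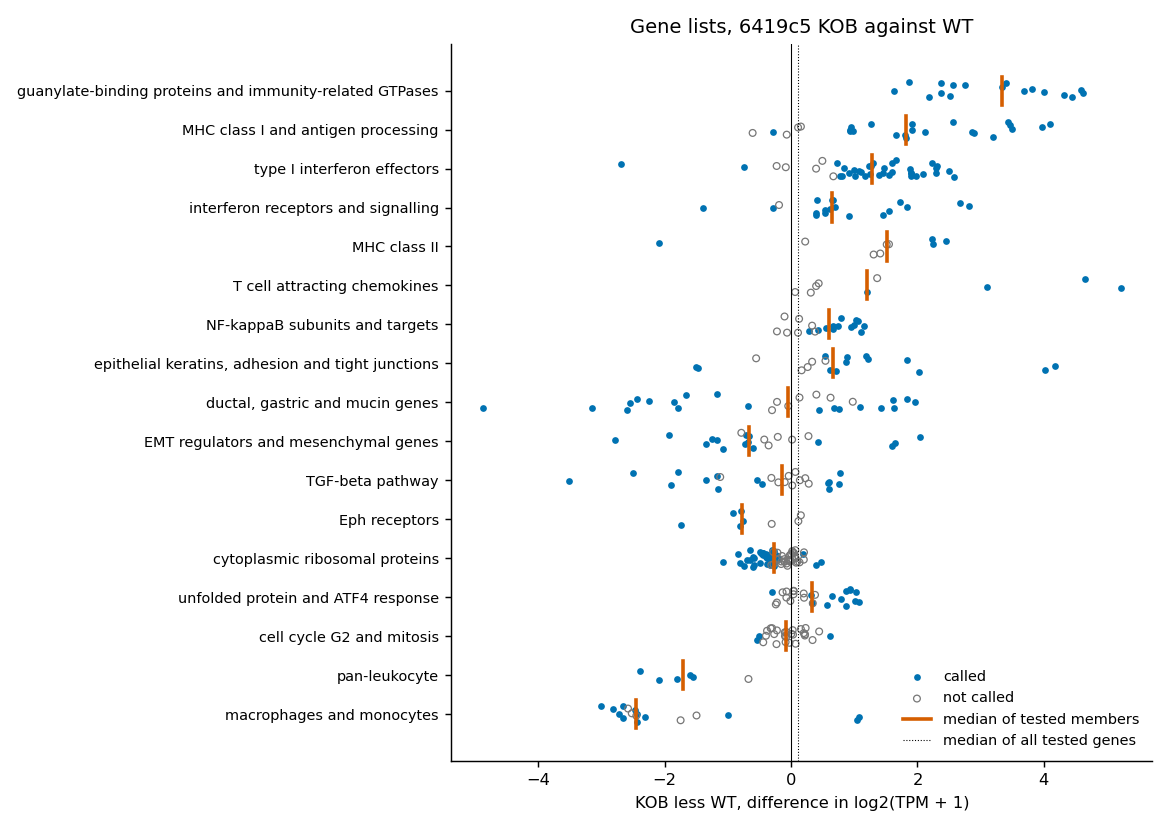
Differences in log2(TPM + 1), KOB less WT, of the tested members of 17 lists (filled, called; open, not called), with the median of each list as a bar and the median of all tested genes as a dotted line. The guanylate-binding protein list, with a median of 3.35, lies to the right, and the macrophage list, with a median of -2.45, to the left.

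Growth factor genes moved in both directions. In the EGF receptor family and its ligands, 11 of 15 listed members were tested, 3 rose and 4 fell. Erbb2 was at 25.4, 29.7 and 21.5 TPM in WT and 69.7, 66.5 and 60.9 TPM in KOB (1.34 ± 0.12, adjusted p = 7.6e-08). The ligands Areg and Ereg fell, Areg from 59.9, 63.1 and 96.0 TPM to 22.4, 25.7 and 39.9 TPM (-1.30 ± 0.24, adjusted p = 2.7e-04) and Ereg from 11.7, 16.6 and 27.5 TPM to 5.02, 6.34 and 7.75 TPM (-1.35 ± 0.26, adjusted p = 3.5e-04), and Tgfa rose (12.4, 17.9 and 14.3 TPM in WT and 24.5, 26.1 and 22.5 TPM in KOB, 0.69 ± 0.12, adjusted p = 1.7e-04). Myc was at 69.5, 75.6 and 80.5 TPM in WT and 115, 124 and 134 TPM in KOB (0.72 ± 0.13, adjusted p = 2.2e-04), with no overlap. Trp53 (192, 178 and 169.6 TPM in WT and 193, 193 and 175 TPM in KOB, 0.055 ± 0.11, adjusted p = 0.72) and Cdkn2a (883, 715 and 812 TPM in WT and 826, 927 and 917 TPM in KOB, 0.15 ± 0.15, adjusted p = 0.45) did not pass in this test. Among ERK pathway outputs, 17 of 18 listed members were tested, 4 rose and 4 fell (2 fell without WT column 3 or KOB column 1), with Etv5 lower (33.4, 36.2 and 46.9 TPM in WT and 21.8, 19.4 and 19.4 TPM in KOB, -0.90 ± 0.14, adjusted p = 6.2e-05) and Spry1 higher (29.6, 31.5 and 19.8 TPM in WT and 54.0, 56.2 and 50.2 TPM in KOB, 0.99 ± 0.15, adjusted p = 4.6e-05). In the YAP and TEAD list Tead2, a TEAD transcription factor, was at 75.3, 41.8 and 56.0 TPM in WT and 6.14, 7.61 and 4.23 TPM in KOB (-3.06 ± 0.21, adjusted p = 1.2e-08), while F3, tissue factor, rose (80.5, 146 and 64.4 TPM in WT and 246, 248 and 299.7 TPM in KOB, 1.52 ± 0.21, adjusted p = 1.2e-05).

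Axon guidance genes changed widely, also in both directions. Of the 31 listed members 26 were tested, 14 rose and 7 fell. Ntn1, netrin-1, was at 9.59, 13.4 and 34.2 TPM in WT and 0.321, 0.456 and 0.253 TPM in KOB (-3.71 ± 0.27, adjusted p = 1.6e-08), below 1 TPM in each KOB library, and its relative Ntn4 rose (11.0, 13.6 and 13.7 TPM in WT and 32.2, 34.7 and 34.8 TPM in KOB, 1.35 ± 0.17, adjusted p = 4.6e-06). Sema4a, a semaphorin, was at 37.6, 43.8 and 30.4 TPM in WT and 119, 123 and 123 TPM in KOB (1.69 ± 0.14, adjusted p = 3.7e-08), and Plxnb2, a plexin receptor for semaphorins, at 143, 164 and 171 TPM in WT and 293, 262 and 266 TPM in KOB (0.78 ± 0.11, adjusted p = 1.8e-05). Among genes of the Hox clusters, which set position along the body axis, 13 of 39 listed members were tested, 6 rose and 3 fell. Hoxa3 fell (13.8, 7.82 and 13.3 TPM in WT and 2.32, 3.11 and 1.93 TPM in KOB, -1.85 ± 0.17, adjusted p = 1.5e-07), and Hoxb5 (3.02, 1.57 and 2.24 TPM in WT and 5.38, 6.11 and 5.51 TPM in KOB, 1.05 ± 0.15, adjusted p = 3.0e-05) and Hoxb6 (22.8, 15.1 and 11.4 TPM in WT and 39.0, 45.8 and 36.7 TPM in KOB, 1.29 ± 0.22, adjusted p = 1.1e-04) rose. Smo, the signal-transducing protein of the Hedgehog pathway, was at 49.8, 36.8 and 54.1 TPM in WT and 3.17, 2.78 and 3.75 TPM in KOB (-3.49 ± 0.18, adjusted p = 2.2e-10).

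Chitinase-like genes and part of the complement genes rose. Chil4 was at 22.5, 216 and 55.3 TPM in WT and 4235, 3018 and 8619.8 TPM in KOB (6.18 ± 0.81, adjusted p = 8.6e-06), with an SE larger than that of most genes named here and WT column 2 well above the other WT columns. Its relative Chil3 was at 38.3, 3.84 and 1.57 TPM in WT and 84.9, 59.4 and 182 TPM in KOB (3.64 ± 0.74, adjusted p = 6.6e-04), and as the sequences are alike, the split of reads between them is uncertain. In the complement and acute phase list, 20 of 31 listed members were tested, 8 rose and 4 fell, and 2 fell without KOB column 3. Cfb, complement factor B, was at 92.9, 143 and 92.2 TPM in WT and 235, 358 and 231 TPM in KOB (1.32 ± 0.16, adjusted p = 3.5e-06). Cd55, which protects cells from complement, was at 1.64, 5.29 and 1.91 TPM in WT and 15.5, 11.5 and 16.9 TPM in KOB (2.08 ± 0.24, adjusted p = 2.2e-06). C3 was at 379.8, 405 and 290.3 TPM in WT and 708, 765 and 501 TPM in KOB (0.87 ± 0.26, adjusted p = 0.011), a call lost without WT column 3 or KOB column 2.

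Ribosomal protein genes were slightly lower, and proliferation genes were largely uncalled. Of the 77 listed members 77 were tested, 3 rose and 41 fell, with a median of -0.26, with 23 falling when the fit held the 6 libraries alone and 11 rising after quantile normalization. Without WT column 1, 5 rose and 28 fell, with a median of -0.17. The summed TPM was 210117, 189579 and 162318 in WT and 160321, 153667 and 164071 in KOB, so WT column 3 lay inside the KOB range. Rpl39 was at 2812, 2663 and 2057 TPM in WT and 1593, 1415 and 1577 TPM in KOB (-0.70 ± 0.10, adjusted p = 3.0e-05). Of the genes of G2 and mitosis, 28 were tested, 1 rose and 2 fell, and 9 fell after median-of-ratios rescaling. Foxm1, a transcription factor of mitotic genes, did not pass (34.3, 32.1 and 46.4 TPM in WT and 28.2, 27.2 and 26.0 TPM in KOB, -0.44 ± 0.18, adjusted p = 0.056). Among S phase genes, 26 of 26 listed members were tested, 6 rose and 1 fell, and 2 to 3 rose without WT column 1, KOB column 2 or KOB column 3.

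Part of the lipid synthesis and unfolded protein response genes rose. Of the 29 listed members 29 were tested, 13 rose and 0 fell, with 8 rising without WT column 1 or KOB column 1. Mvk, mevalonate kinase, was at 26.2, 27.1 and 25.4 TPM in WT and 60.4, 50.2 and 63.1 TPM in KOB (1.11 ± 0.11, adjusted p = 3.9e-07). In the unfolded protein and ATF4 response, 26 of 26 listed members were tested, 12 rose and 1 fell. Ddit4, a stress-induced inhibitor of mTORC1, was at 209.9, 223 and 211 TPM in WT and 359, 460.0 and 424 TPM in KOB (0.94 ± 0.091, adjusted p = 2.9e-07), and Herpud1 at 109.5, 123 and 81.6 TPM in WT and 161, 203 and 205 TPM in KOB (0.86 ± 0.13, adjusted p = 2.9e-05). Hspa5, the chaperone BiP, did not pass (529, 573 and 588 TPM in WT and 463, 556 and 524 TPM in KOB, -0.13 ± 0.091, adjusted p = 0.24). Among hypoxia and glycolysis genes, 28 of 30 listed members were tested, 8 rose and 4 fell, close to the shares of all tested genes (30.1% and 15.4%), and 5 rose without WT column 1. Egln3, an oxygen-sensing hydroxylase, was at 29.8, 50.5 and 45.6 TPM in WT and 114, 133 and 194 TPM in KOB (1.78 ± 0.22, adjusted p = 4.1e-06), and Pfkp, phosphofructokinase of platelet type, at 9.91, 18.8 and 19.8 TPM in WT and 45.9, 53.7 and 64.7 TPM in KOB (1.74 ± 0.17, adjusted p = 3.7e-07), while Gapdh did not pass (6535, 5899 and 7282 TPM in WT and 5388, 6284 and 7379.8 TPM in KOB, -0.056 ± 0.13, adjusted p = 0.75).

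Counts for further sets follow. Among immediate-early genes, 21 of 21 listed members were tested, 4 rose and 1 fell, and 8 rose without KOB column 1. Junb, an AP-1 subunit, was among those that rose (809, 683 and 621 TPM in WT and 975, 1273 and 1240.1 TPM in KOB, 0.72 ± 0.14, adjusted p = 4.7e-04). Among Trp53 and its targets, 22 of 23 listed members were tested, 8 rose and 2 fell, with Phlda3 at 93.1, 79.5 and 80.5 TPM in WT and 163, 183 and 183 TPM in KOB (1.06 ± 0.079, adjusted p = 1.9e-08). Among nuclear genes of oxidative phosphorylation, 54 of 54 listed members were tested, 16 rose and 8 fell, shares close to the 30.1% and 15.4% of all tested genes, and 5 fell without WT column 1, WT column 2 or KOB column 2. Among integrins and laminins, 20 of 20 listed members were tested, 9 rose and 4 fell (2 fell without WT column 3), with Itgb4, a partner of laminin binding, at 61.8, 73.6 and 92.5 TPM in WT and 154, 138 and 160.5 TPM in KOB (1.0 ± 0.12, adjusted p = 3.7e-06). Among imprinted and germline genes, 18 of 31 listed members were tested, 4 rose and 2 fell. H19, an imprinted long noncoding RNA, was at 4.94, 5.44 and 7.86 TPM in WT and 3.86, 1.35 and 0.488 TPM in KOB (-1.44 ± 0.32, adjusted p = 0.0014). Of the 2 acinar genes tested, both fell, Cela1 from 21.1, 20.9 and 17.9 TPM to 2.04, 2.5 and 1.78 TPM (-2.76 ± 0.27, adjusted p = 3.1e-07). Endothelial markers were low, with summed TPM of 36.8, 69.5 and 47.3 in WT and 53.9, 45.8 and 38.9 in KOB, and 2 of 8 rose, a share below the 30.1% of all tested genes.

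Several of the largest changes lie outside these lists. Nptx1, a neuronal pentraxin, was at 28.6, 43.4 and 65.6 TPM in WT and 0.242, 0.10 and 0.279 TPM in KOB (-5.20 ± 0.25, adjusted p = 1.7e-10). Cpn1, a carboxypeptidase subunit, was at 50.9, 32.3 and 17.3 TPM in WT and 0.693, 0.725 and 0.731 TPM in KOB (-4.20 ± 0.31, adjusted p = 1.8e-08), and Halr1, a long noncoding RNA, at 40.1, 16.4 and 19.5 TPM in WT and 0, 0 and 1.30 TPM in KOB (-4.21 ± 0.39, adjusted p = 1.8e-07). Each was under 2 TPM in every KOB library. Pzp (26.0, 23.5 and 13.3 TPM in WT and 0.622, 1.97 and 0.0896 TPM in KOB, -3.61 ± 0.44, adjusted p = 3.6e-06), Clca3a1 (44.1, 30.9 and 30.6 TPM in WT and 1.94, 2.17 and 2.08 TPM in KOB, -3.54 ± 0.14, adjusted p = 2.2e-11), Tspan11 (20.5, 19.9 and 34.5 TPM in WT and 0.985, 1.52 and 1.29 TPM in KOB, -3.48 ± 0.35, adjusted p = 3.7e-07) and Sprr2k (13.1, 27.1 and 38.5 TPM in WT and 1.74, 1.51 and 1.02 TPM in KOB, -3.38 ± 0.29, adjusted p = 8.7e-08) also fell. F13a1, a coagulation factor chain made by macrophages, was at 35.1, 76.3 and 70.3 TPM in WT and 2.59, 4.78 and 2.76 TPM in KOB (-3.77 ± 1.06, adjusted p = 0.0076), and Fcrls, a gene of myeloid cells, at 8.51, 37.6 and 49.0 TPM in WT and 0.745, 0.642 and 0.913 TPM in KOB (-3.90 ± 0.94, adjusted p = 0.0025). Both moved with the macrophage markers, whose part in these values was not tested.

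Rps27rt and Hist1h2ap each have a near-identical copy, and their own values are uncertain. Rps27rt, a retrotransposed copy of Rps27, was at 2089.7, 4412 and 3176 TPM in WT and 15.2, 0.00407 and 1.64 TPM in KOB (-9.78 ± 1.72, adjusted p = 1.7e-04). Summed with Rps27, the level was 9098, 9122 and 5839 TPM in WT and 4965, 4208 and 4246 TPM in KOB, a far smaller difference. Hist1h2ap was listed at 0 in each WT library and at 261, 287 and 370.4 TPM in KOB. Summed with Hist1h2ao, it stood at 800.0, 546 and 1183 TPM in WT and 703, 524 and 584 TPM in KOB, and these sums overlapped.

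The direct comparison of KOB with KOA shares no control. In it 1813 genes were higher in KOB (13.6% of the genes tested) and 643 lower (4.83%), with a median difference of 0.042. The total of 2456 was 1549 without KOB column 2 and 1599 without KOA column 1. Of the guanylate-binding protein list, 1 of 17 was called higher in KOB and the median difference was 0.50. Gbp2 stood at 168, 173 and 146 TPM in KOA (KOB less KOA 0.85 ± 0.42, adjusted p = 0.17), inside the range of the KOB libraries, and Cxcl9 at 65.4, 66.2 and 59.3 TPM (0.83 ± 0.51, adjusted p = 0.28). A p above the threshold does not show that the lines are alike. Of the interferon signalling list 7 of 19 were called higher and 1 lower, with Socs1, among those higher, at 27.6, 28.5 and 25.0 TPM in KOA (1.61 ± 0.30, adjusted p = 0.0011). From the MHC class I list 5 of 25 were called higher, among them Tap1 (53.8, 77.2 and 43.8 TPM in KOA, 1.27 ± 0.37, adjusted p = 0.023) and H2-K1 (2021, 2518 and 1717 TPM, 0.79 ± 0.27, adjusted p = 0.045). Ido1 was at 18.6, 15.9 and 9.96 TPM in KOA, below each KOB library (2.70 ± 0.45, adjusted p = 4.2e-04). Epha2 was called higher in KOB than in KOA (0.38 ± 0.12, adjusted p = 0.035).

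The genes furthest apart between KOB and KOA were of other kinds. Hoxb6 was at 2.03, 2.18 and 0.845 TPM in KOA (3.99 ± 0.22, adjusted p = 1.5e-09) and its neighbour Hoxb5 at 0.291, 0.455 and 0.0499 TPM (2.41 ± 0.15, adjusted p = 1.2e-08), so that WT lay between the lines. Hoxb5os, an antisense RNA of that cluster, was at 8.88, 7.64 and 8.51 TPM in WT, 1.53, 2.60 and 1.25 TPM in KOA and 17.1, 22.9 and 15.6 TPM in KOB (2.82 ± 0.22, adjusted p = 1.9e-07). Because strand use in the counting is not stated, reads of the antisense RNA and its partner genes cannot be told apart. Tspan12, a tetraspanin, was at 0.497, 0.363 and 0.366 TPM in KOA against 11.9, 12.8 and 11.0 TPM in KOB and 26.9, 29.1 and 30.1 TPM in WT (3.19 ± 0.16, adjusted p = 5.1e-10). In the other direction, Hmgn3, a nucleosome-binding protein, was at 27.6, 22.2 and 32.0 TPM in KOA and 2.11, 0.933 and 1.71 TPM in KOB (-3.46 ± 0.20, adjusted p = 3.4e-09), and Robo1, a receptor for Slit proteins, at 13.4, 11.9 and 12.8 TPM and 1.35, 1.52 and 1.39 TPM (-2.50 ± 0.17, adjusted p = 3.2e-08). Hook1 (-2.53 ± 0.18, adjusted p = 6.2e-08) and Fgfr4 (-2.27 ± 0.20, adjusted p = 1.0e-06) were lower in KOB as well. Fibroblast markers differed too, with 6 of 14 called higher in KOB and none lower, and summed TPM of 843, 777 and 961 in KOA, whose part in the differences between the lines was not tested.

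Differences between KOB and KOA were unevenly spread over chromosomes. On chromosome 10, 262 of 615 tested genes were higher in KOB than in KOA (42.6%), on chromosome 18, 154 of 349 (44.1%), on chromosome 8, 220 of 752 (29.3%), on chromosome 16, 88 of 425 (20.7%), and on chromosome 1, 152 of 782 (19.4%). These were the 5 chromosomes whose median difference exceeded 0.1, a bound chosen after the values were seen, and they held 2923 genes, of which 876 were called higher and 40 lower. On all others, 937 of 10389 genes were called higher and 603 lower. Against WT the median difference of KOB on chromosome 10 was 0.37, with 331 genes higher (53.8%) and 34 lower (5.53%), and on chromosome 18 it was 0.29. After the all-gene median of each library was subtracted, the chromosome 10 median was 0.28, 0.25 and 0.29 in KOB libraries and -0.029 to 0.0049 in KOA. On chromosome 2 the medians were lower than WT in both KO lines, at -0.31 to -0.25 in KOB and -0.27 to -0.22 in KOA. They were higher than WT in both KO lines on chromosome 11 (0.13 to 0.15 in KOB and 0.15 to 0.20 in KOA) and chromosome 3 (0.10 to 0.13 in KOB and 0.14 to 0.24 in KOA). Ddit4 and Shmt2 lie on chromosome 10, Ido1 and Herpud1 on chromosome 8, Gbp2 on chromosome 3 and Tgtp2 on chromosome 11. The part of such chromosome-wide differences in single genes was not tested.

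**Figure D5:**
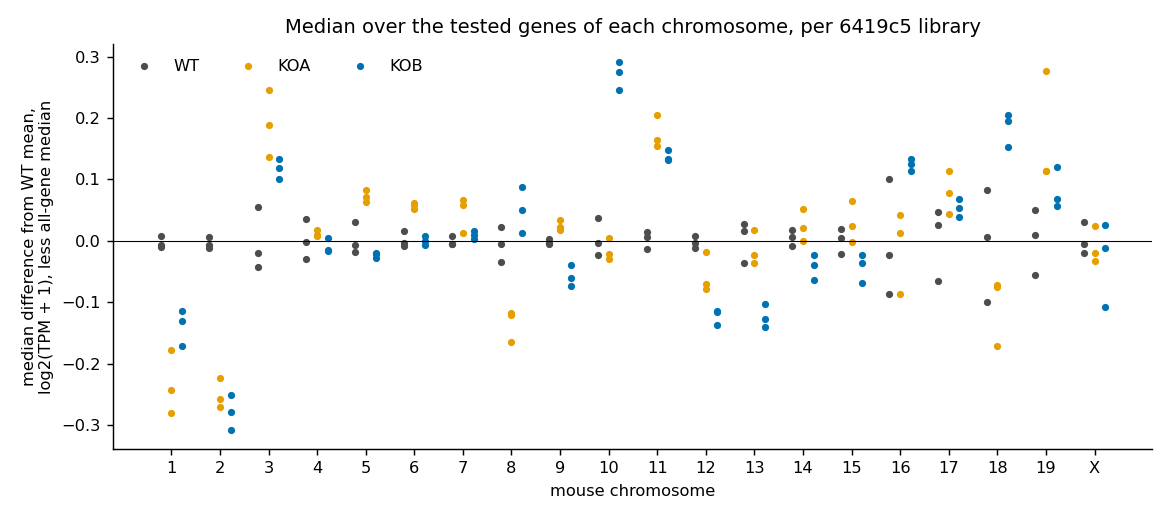
Median over the tested genes of each chromosome of the difference from the WT mean in log2(TPM + 1), less the median of all tested genes of that library, for each 6419c5 library. KOB points stand apart above WT and KOA on chromosomes 10 and 18. Points of both KO lines lie below WT on chromosomes 1 and 2 and above WT on chromosomes 3 and 11.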

How the data were processed

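RNA sequencing values of tumour cells sorted from mouse tumours were taken from 1 deposited table of 24623 genes in 21 libraries. The authors deposited the values as TPM, and the submitters' processing notes name Salmon and mm10; the Salmon version and the transcript annotation are not given in the sources used here. TPM keeps no read depth, so the depth of each library is unknown.

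A gene was kept if 3 or more of the 6 KOB and WT libraries reached 1 TPM (13312 genes). With a pseudocount of 1, log2(TPM + 1) was fitted with limma 3.58.1 (R 4.3.3) as 6 line means over 21 libraries, with a mean-variance trend, which gave 15 residual and 3.25 prior degrees of freedom. KOB less WT and KOB less KOA were tested two-sided, and genes with a Benjamini-Hochberg adjusted p under 0.05 over all tested genes were called. The fit was also run on simulated data with independent normal noise and the same spread in every line. That run does not bear on scale shifts between libraries or on unequal spread between lines. The labels number the EPHA2-KO lines and the table letters them, so the table's KOA and KOB are used.

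The genes named are for each direction the 15 called genes that changed most, given a mean of 5 TPM or more in the higher group and no overlap between groups, the 8 largest in each direction between KOB and KOA, a fixed set of genes, and from each of 50 gene lists up to 4 with the smallest p and 2 with the highest TPM. Not every such gene is printed, and some items are not reported here. The libraries compared and the lists were chosen with earlier results of these data known. Promoter sequences and coordinates are from RefSeq (GRCm38.p6, the assembly behind mm10), matched by symbol, and 13281 tested genes had coordinates. Alternatives were pseudocounts of 0.1 and 0.5, no filter, a filter of 5 TPM, median-of-ratios rescaling, quantile normalization, rescaling without Mir6236, fits of 6 or 9 libraries, robust variance moderation, a replicate block, and leaving out each library.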

Additional observations from a re-analysis of the deposited data

Results flagged for a closer look

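In 13 of the genes named by the largest changes or taken from a fixed set, the 2 lines labelled EPHA2-KO differed by the limma test of KOB less KOA, in log2(TPM + 1). Higher in KOB were Hist1h2ap (6.22), H2-Q8 (3.65), Ido1 (2.70), Chil4 (2.48), Krt79 (1.38), Krt15 (1.34), Tap1 (1.27), H2-K1 (0.79), Tgfb1 (0.48), Myc (0.42) and Epha2 (0.38). Lower in KOB were Rps27rt (-8.92) and Clca3a1 (-0.47). The values of Hist1h2ap, H2-Q8 and Rps27rt rest on a split of reads between near-identical genes, and the Hist1h2ap difference from KOA did not pass without KOA column 1 or 2. For Krt79, KOA stood at 155, 83.5 and 64.9 TPM and KOB at 272, 147 and 377 TPM, both above every WT library. Tgfb1 did not pass against WT in KOB, and stood at 70.6, 107 and 91.3 TPM in KOA.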

How the results depend on the processing

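Of 281 named genes tested in KOB against WT, 227 were called, and 194 of these were called in the same direction under all 17 alternatives. The other 33 were lost in at least 1, none reversed, and 21 uncalled genes passed in at least 1. The count of genes lower in KOB rose from 2044 to 3140 with median-of-ratios rescaling and to 3449 with quantile normalization. Leaving out each library in turn gave 3364 to 3890 genes higher, 1471 to 2219 lower, 1268 to 1486 with at least a 2-fold change, and an Epha2 difference of 0.069 to 0.26, not called in any of them. The number of genes called between KOB and KOA, 2456, was 1325 in a fit of the 9 libraries of 6419c5 and 1549 to 2155 when 1 library was left out. A fit of 6 libraries was not run for that comparison. The cause of these shifts was not tested, except that fits of fewer libraries have fewer residual degrees of freedom.

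Same-numbered WT and KOB libraries deviated together with correlations of 0.056, 0.060 and 0.0055, so the numbers were not taken to pair the samples. With a replicate block, 3130 genes were higher and 1419 lower, 1367 changed at least 2-fold, 928 were called between KOB and KOA, and the Epha2 difference was 0.16. Not every library correlated best with its own number. Low TPM values carry an unknown counting error, so the folds of genes near 0 in WT are the least certain.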
